A study of Mus musculus with 2 samples.

Results

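The 44 collagen genes on the arrays were examined here in ureters of E14.5 mouse embryos, grouped by the structure their proteins build. They were all genes with a probe whose accession maps to a mouse symbol of the form Col, number, a, number, out of 32081 genes named or kept under the array's own name. The 44 genes had 64 of the 39396 probes used, and 40 of them passed a filter on dim probes. The groups were fibrillar collagens (types I, III, V, XXIV and XXVII, 8 genes), basement membrane collagens (types IV, XV and XVIII, 8 genes), cartilage type collagens (types II, IX, X and XI, 7 genes) and all other types (21 genes). The rule picks members by name and uses no measured value, but it was chosen with earlier results of these data known.

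The study set ureters whose mesenchyme is meant to lack TBX2 and TBX3, a pair of T-box transcription factors, against control ureters, all on the NMRI strain. The labelled knockout carried Tbx18(cre/+) together with Tbx2(fl/fl) and also Tbx3(fl/fl), in which a Cre recombinase in the Tbx18 locus, active in progenitors of the ureteric mesenchyme, removes the floxed alleles. The control carried Tbx18(+/+) together with Tbx2(fl/?) and also Tbx3(fl/?), with 1 allele of each target unspecified, so it carried no Cre and a full pair of Tbx18 alleles, and the Cre allele cannot be told apart from the deletions. There were 4 RNAs on 2 arrays: each two-colour Agilent array held 1 knockout RNA and 1 control RNA, from females on one and males on the other. The dyes were exchanged between the arrays, so a pair's sex and its dye orientation go together and their effects cannot be told apart. The labels do not state the number of embryos per RNA. Each p-value weighs how far these 2 pairs lie apart, moderated towards the spread over all genes.

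Collagens are proteins of the extracellular matrix built from 3 chains wound into a triple helix, either of identical chains or of several kinds. Fibrillar collagens form the tensile fibres of connective tissue, type IV forms the network under epithelia and around muscle cells, and types II, IX and XI form the thin fibrils of cartilage. In the developing ureter the inner mesenchyme becomes smooth muscle around the urothelium, and the outer mesenchyme becomes a fibrous adventitia rich in fibrillar collagen.

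A log2 ratio below is knockout over control within 1 array, after background correction and loess normalization. A level is the normalized log2 intensity of 1 RNA, which serves to compare RNAs for 1 probe and never probes with each other. A gene was called when limma's moderated test over all 20629 genes that passed the filter gave a Benjamini-Hochberg adjusted p under 0.05. Of all genes, 385 were called higher and 374 lower, which is 3.68% in all (1.87% higher and 1.81% lower), and the smallest change among called genes was 0.34 in size. The median log2 ratio over all genes was -0.0021, and the 5th and 95th percentiles were -0.22 and 0.23. Green signals were well above background for 70.8% and 71.6% of spots and red signals for 66.9% and 64.3%, with 0 spots saturated. As a check of the labels, Tbx3 was lower in the labelled knockout (log2 ratio -1.09, SD 0.10, n = 2 pairs, adjusted p = 0.000862). The Tbx2 probe went against its label, at 0.86 (SD 0.12, adjusted p = 0.00236), and whether it lies in the deleted part is unknown. For Tbx18 the ratio was 0.15 (adjusted p = 0.379). Directions below are those of the RNA labelled knockout. Smooth muscle markers were lower, with 6 of 8 called, a median of -2.83, and summed intensities of 59040 and 58800 in the knockout RNAs against 199300 and 251900 in the controls.

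Among the 40 collagen genes tested, Col8a1 rose and the cartilage type genes Col2a1, Col9a1 and Col9a3 fell, while the other 36 were not called. No gene of the fibrillar or the basement membrane group was called, where types II and XI, which also form fibrils, are counted as cartilage type. The 4 called genes are 10% of the collagens tested, beside 3.68% of all genes. The 3 that fell are 7.5% of them beside 1.81%, and the 1 that rose is 2.5% beside 1.87%. The median log2 ratio of the 40 was 0.0080, near that of all genes, and their median change in size was 0.14, against 0.058 for all genes. Their pairs also lay further apart, with a median SD between pairs of 0.13 against 0.072 for all genes, so the larger size cannot be read as a larger response. In bulk tissue, fewer cells of a type and less RNA per cell cannot be told apart. Col10a1, Col13a1, Col19a1 and Col28a1 did not pass the filter, which asked that over 0.5 of a probe's spots lie well above background in one condition on both arrays, and they are given no value.

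**Figure D1:**
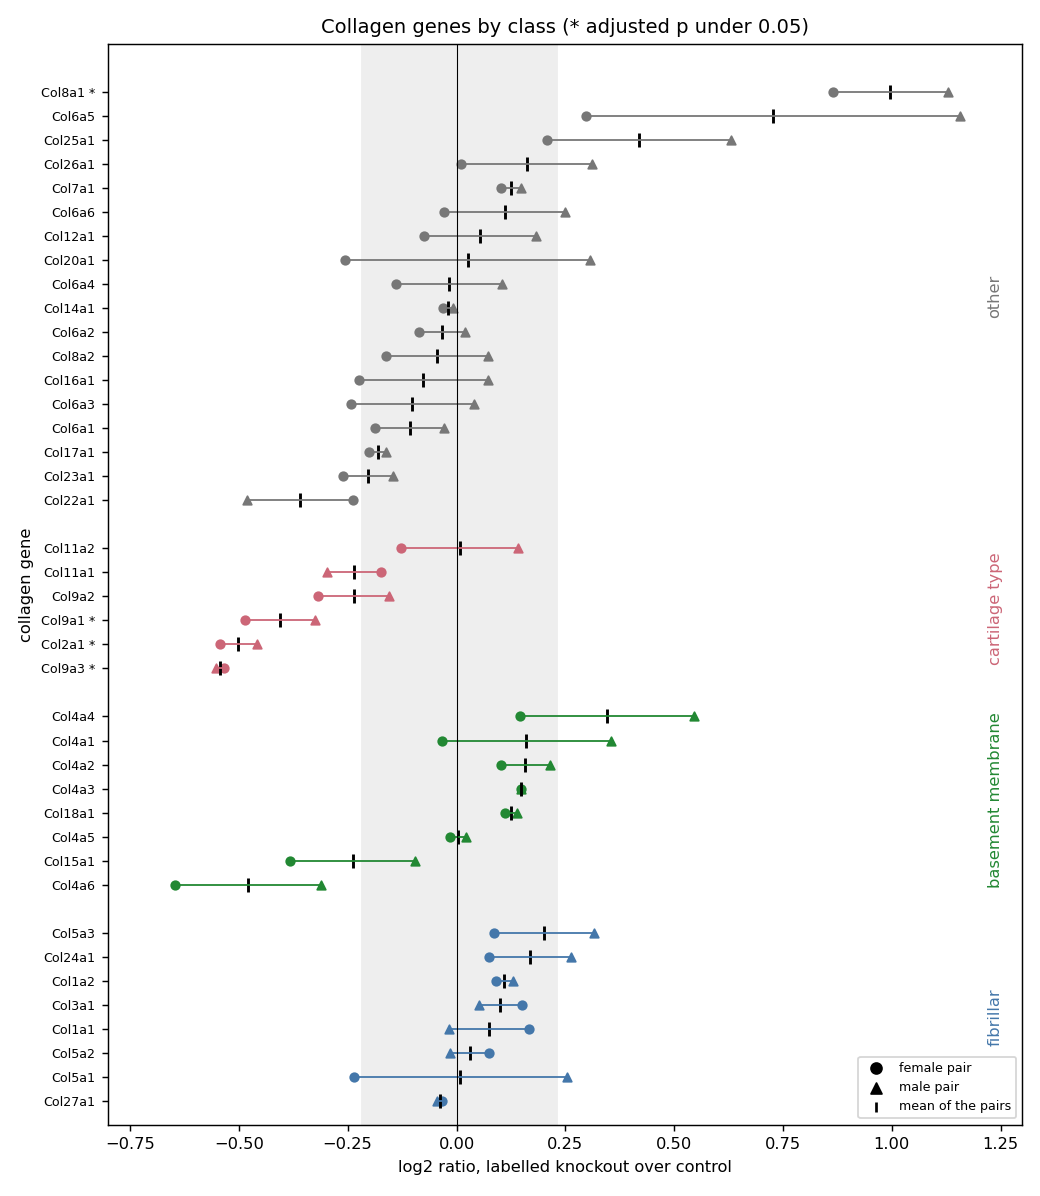
Log2 ratio (knockout over control, horizontal axis) of each of the 40 collagen genes tested, by class; circles are the female pair, triangles the male pair, ticks their mean, and the grey band runs from the 5th to the 95th percentile of all genes. Col8a1 stands at the right at 1.00, and Col9a3, Col2a1 and Col9a1 stand left of the band at -0.54, -0.50 and -0.41. Some genes that were not called also lie outside the band, such as Col4a6 at -0.48 and Col6a5 at 0.73.

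Type VIII collagen, a short-chain collagen of network type found in vessel walls and under the corneal endothelium, has 2 chains, encoded by Col8a1 and Col8a2. The bases before each start are shown because only one of these chains was called. They are the 250 bases upstream of the start site in RefSeq's GRCm38.p6 annotation, 5′ to 3′ on the gene's strand, at chr16:57754738-57754987 (minus strand) for Col8a1 and chr4:126286544-126286793 (plus strand) for Col8a2. Capitals mark GGGCGG or its reverse CCGCCC, the core of the GC box.
Col8a1: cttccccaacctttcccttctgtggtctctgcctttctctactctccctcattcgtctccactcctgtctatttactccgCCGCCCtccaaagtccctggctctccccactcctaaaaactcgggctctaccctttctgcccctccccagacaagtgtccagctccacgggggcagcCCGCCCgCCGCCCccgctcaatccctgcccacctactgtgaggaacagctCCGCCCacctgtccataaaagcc
Col8a2: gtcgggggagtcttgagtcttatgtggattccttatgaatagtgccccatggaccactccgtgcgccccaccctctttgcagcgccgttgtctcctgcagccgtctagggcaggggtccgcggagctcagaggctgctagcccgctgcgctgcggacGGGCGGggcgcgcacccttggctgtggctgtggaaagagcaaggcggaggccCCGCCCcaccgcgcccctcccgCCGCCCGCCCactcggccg
Each stretch holds 4 matches, the last pair of Col8a2 overlapping, and neither holds the TATAAA box, the CCAAT box or, as a T-box element, the letters AGGTGTGA. The GC content was 60.8% for Col8a1 and 70.0% for Col8a2.

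Col8a1 had a level of 8.06 in the female control and 8.93 in the female knockout, and of 8.06 in the male control and 9.18 in the male knockout. Both knockout RNAs lay above both controls. The log2 ratios of 0.87 and 1.13 average 1.00 (SD 0.19, n = 2 pairs; 95% interval 0.79 to 1.20; adjusted p = 0.00225), a rise of 99.6%. The call held in all 13 processing alternatives that gave a p, with adjusted p between 0.000202 and 0.043. Alternatives that changed only the eBayes fit kept the same pair ratios, so the 13 are not independent. Col8a2, the partner chain, had levels of 15.10 and 14.96 in the female and male controls and 14.94 and 15.03 in the knockouts. The groups overlapped, and the mean log2 ratio was -0.045 (95% interval -0.24 to 0.15; adjusted p = 0.942). A second Col8a2 probe that passed gave 0.024. The difference between the chains was not tested.

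Col9a3, one of the 3 chains of type IX collagen, which decorates type II fibrils, had levels of 9.01 and 8.86 in the female and male controls and 8.47 and 8.31 in the knockouts. Both knockout RNAs lay below both controls. The ratio was -0.54 (SD 0.013; 95% interval -0.70 to -0.39; adjusted p = 0.00905). Col2a1, whose product alone forms type II collagen, the main fibril of cartilage, had levels of 12.00 in the female control, 11.45 in the female knockout, 11.49 in the male control and 11.03 in the male knockout. Both knockout RNAs lay below both controls, the female knockout close to the male control. Its ratio was -0.50 (SD 0.060; 95% interval -0.66 to -0.34; adjusted p = 0.0134). Col9a1, another type IX chain, had levels of 15.87 and 15.73 in the controls against 15.38 and 15.40 in the knockouts. The groups did not overlap, and the ratio was -0.41 (SD 0.11; 95% interval -0.58 to -0.23; adjusted p = 0.0381).

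The 3 remaining cartilage type genes tested were not called. Col9a2, the third type IX chain, gave pair values of -0.32 and -0.15, females first, with a mean of -0.24 (adjusted p = 0.189). Col11a1, a chain of the type XI core of cartilage fibrils that is also made in other connective tissue, gave -0.17 and -0.30, with a mean of -0.24 (adjusted p = 0.171). The direction was the same in both pairs for both genes. Col11a2, its partner chain, gave -0.13 and 0.14 and averaged 0.0073 (adjusted p = 0.993). The median of the 6 genes was -0.32, with pair medians of -0.40 and -0.31, and 5 of the 6 were lower in both pairs. Col10a1, the collagen of enlarged cartilage cells, is the member of this class without a value.

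The calls in this class depend on the processing. Of the 13 alternatives that gave a p, Col9a3 was called in 11, and Col2a1 and Col9a1 in 9 each, while every alternative kept them below 0. These counts overstate how far the calls held, since the alternatives are not independent. Those that changed only the filter, the averaging over probes or the eBayes fit left Col2a1 at -0.50 and tested the same pair values again. When loess was replaced by median centring the adjusted p was 0.0859 for Col9a3, 0.174 for Col2a1 and 0.296 for Col9a1. From the authors' deposited value table it was 0.0534, 0.0715 and 0.133, and from the scanner software's processed signals Col2a1 gave 0.0504 and Col9a1 gave 0.0989. In a fit of the separate channels that also dropped the pairing within arrays, and that counts among the 13, they gave 0.463 and 0.0642.

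**Figure D2:**
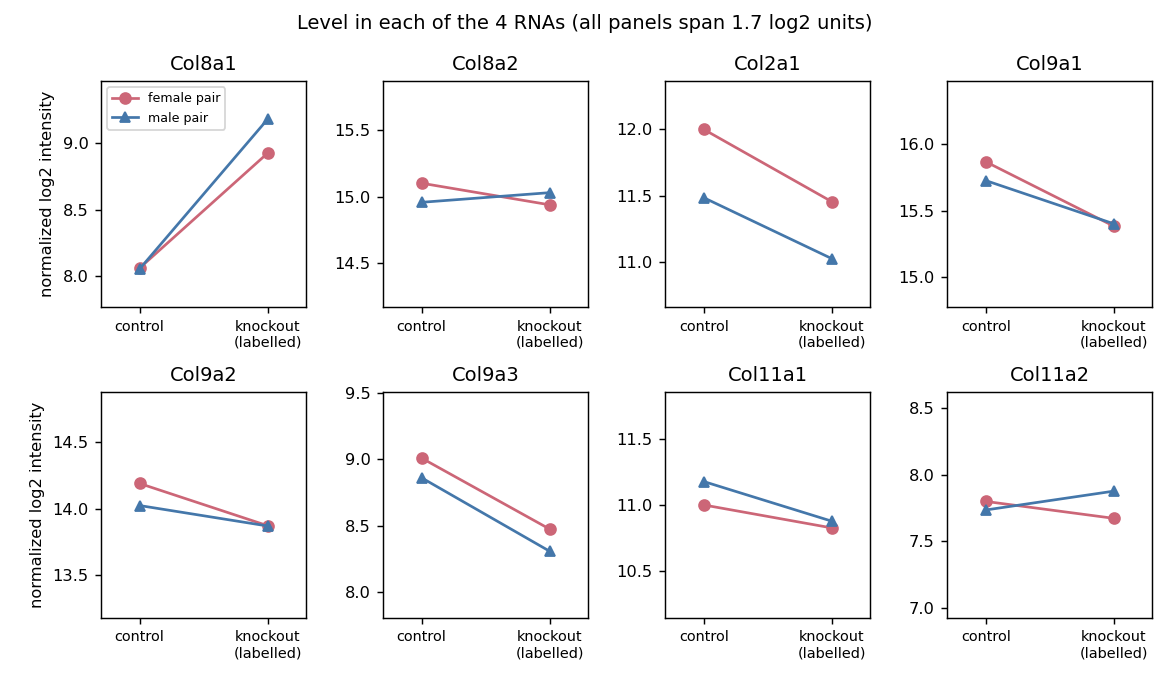
Normalized log2 intensity (vertical axis) of named collagen genes in the control and the labelled knockout RNA of the female and the male pair, each line joining the RNAs of 1 array; every panel spans 1.7 log2 units. Col8a1 climbs in both pairs, Col9a3, Col2a1 and Col9a1 descend in both, and Col8a2 moves in opposite directions.

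Col9a1, a called gene, has more than one start in the RefSeq table, and the 250 bases before each are shown. The first lies at chr1:24177360-24177609 and the second at chr1:24194953-24195202, both on the plus strand of GRCm38.p6, with capitals marking CCAAT.
Col9a1 first start: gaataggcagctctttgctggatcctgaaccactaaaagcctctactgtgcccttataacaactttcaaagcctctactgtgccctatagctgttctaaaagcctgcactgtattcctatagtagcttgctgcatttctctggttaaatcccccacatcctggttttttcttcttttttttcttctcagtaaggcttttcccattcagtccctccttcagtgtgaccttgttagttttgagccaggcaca
Col9a1 second start: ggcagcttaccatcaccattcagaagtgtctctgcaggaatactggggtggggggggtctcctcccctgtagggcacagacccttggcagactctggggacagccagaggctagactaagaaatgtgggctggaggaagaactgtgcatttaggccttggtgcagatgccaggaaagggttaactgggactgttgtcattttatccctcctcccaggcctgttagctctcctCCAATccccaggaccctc
The first stretch is 43.6% GC and holds none of the motifs searched, and the second is 56.0% GC with 1 CCAAT. The brighter probe gave the ratio above. The dimmer one gave 0.020 but did not pass the filter, so its value cannot be set against that of the brighter probe. Which transcript each probe reads is not known here.

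Of the 11 cartilage markers that are not collagens, 5 were tested. Cnmd, which encodes the cartilage protein chondromodulin, rose (0.51, adjusted p = 0.0112), as did Epyc, which encodes a small proteoglycan of growth cartilage (0.68, adjusted p = 0.00384). Their direction is opposite to that of Col2a1, Col9a1 and Col9a3. The defining markers Acan, Matn1, Matn3, Comp, Snorc and Ucma were not among the genes tested. They either did not pass the filter or had no probe under that name, and which was not recorded. Hapln1 and Matn4, which encode proteins of the cartilage matrix, each gave 0.22 (adjusted p = 0.177 and 0.244). Sox9, the transcription factor of cartilage progenitors, gave 0.24 in females and -0.46 in males. The median of the 5 was 0.22, with pair medians of 0.30 and 0.21, and 4 of the 5 were higher in both pairs. The summed intensity of the 5 tested genes was 21930 and 18610 in the knockout RNAs against 18160 and 20190 in the controls. Sox9, the brightest of the 5, weighs most in this sum, at levels of 13.56 and 13.07 in the knockouts against 13.32 and 13.53 in the controls.

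Some markers of other cell types also lay to one side in both pairs. The 5 skeletal muscle markers tested were lower in both pairs, none called, with a median of -0.24. Their summed intensities were 1121 and 984.7 in the knockout RNAs against 1367 and 1156 in the controls. These probes were dim, with control levels from 7.16 for Actn2 to 8.84 for Myh3. Of all 20629 genes, 5808 were lower in both pairs and 5698 higher in both. Ckm was not tested, being either dim or without a named probe. The 4 red cell markers were higher in both pairs (median 0.34), with Hbb-b1 called at 0.43 (adjusted p = 0.0301) and sums of 506700 and 458000 against 352300 and 402500. The bright globin genes Hba-a1 and Hbb-b1 make up most of these sums. The 6 macrophage markers were also higher in both pairs, none called, with a median of 0.19 and sums of 21790 and 22280 against 19480 and 19780. Of the 7 glia and neuron markers tested, 2 were called higher, with a median of 0.15. In this list 5 were higher in both pairs and 2 had opposite signs. The part of these cell types, and of cartilage cells, in the collagen values was not tested.

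Fibrillar collagens showed no call in 8 genes, with a median of 0.087 and pair medians of 0.080 and 0.090. Col1a1 and Col1a2 encode the chains of type I, the main collagen of connective tissue. Col1a1 had levels of 17.28 and 17.34 in the controls and 17.45 and 17.32 in the knockouts, which overlap. Its ratio was 0.074 (95% interval -0.11 to 0.26; adjusted p = 0.837), and Col1a2 gave 0.11 (95% interval -0.049 to 0.27; adjusted p = 0.588). Col3a1, whose product accompanies type I in elastic tissue, gave 0.10 (95% interval -0.064 to 0.26; adjusted p = 0.671). These intervals bound the size of a difference and do not show that the groups were alike.

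Type V collagen sits in the core of type I fibrils and sets their diameter. Its chain genes gave 0.20 for Col5a3 (pair values 0.085 and 0.31; adjusted p = 0.329), 0.030 for Col5a2 (adjusted p = 0.958) and 0.0087 for Col5a1 (adjusted p = 0.994). Col5a1 hides opposite pair values, -0.24 in females and 0.25 in males. Col24a1, a fibrillar collagen of developing bone and cornea, gave 0.17 (pair values 0.075 and 0.26; adjusted p = 0.405), and Col27a1 gave -0.039 (adjusted p = 0.933).

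Basement membrane collagens likewise showed no call in 8 genes, with a median of 0.14 and pair medians of 0.044 and 0.14. Type IV exists as networks of chains 1 and 2, of chains 3, 4 and 5, and of chains 5 and 6. Col4a1 and Col4a2, the ubiquitous chains, start 21 bases apart on opposite strands and each gave 0.16 (adjusted p = 0.626 and 0.389). The pair values of Col4a1 were -0.034 and 0.35, while those of Col4a2 were 0.10 and 0.21.

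The genes for the restricted type IV chains differed more in their values. Col4a6 had levels of 11.18 and 11.06 in the controls against 10.53 and 10.75 in the knockouts, which do not overlap. Its ratio was -0.48 (SD 0.24; 95% interval -0.70 to -0.25; adjusted p = 0.0512), just short of the threshold, and 3 of 13 alternatives called it. A second probe of the gene gave -0.17. Its neighbour Col4a5, whose start lies 1343 bases away on the other strand, gave 0.0044 (adjusted p = 0.995). Col4a4 had levels of 8.56 and 8.41 in the controls against 8.71 and 8.95 in the knockouts, and a ratio of 0.35 (SD 0.28; adjusted p = 0.176), but its second probe that passed gave -0.055. Col4a3, which shares a network with Col4a4, gave 0.15 (adjusted p = 0.395), with its control signal well above background on 1 of 2 arrays.

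Types XV and XVIII, which carry long sugar chains and release the endostatin-like fragments, gave -0.24 for Col15a1 (adjusted p = 0.276) and 0.12 for Col18a1 (adjusted p = 0.510). Col15a1 was lower in both pairs, by unequal amounts of -0.38 and -0.095. The endothelial markers, genes of another cell type that lies on basement membrane, had no call in 7, a median of 0.15, and summed intensities of 96410 and 117700 in the knockout RNAs against 92570 and 90770 in the controls. Egfl7 weighs on the male knockout sum, at a level of 14.82 against 13.97 in the male control. Its pairs differed in sign (-0.20 in females and 0.85 in males), while 6 of the 7 markers were higher in both pairs. The part of the endothelial markers in the basement membrane values was not tested.

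**Figure D3:**
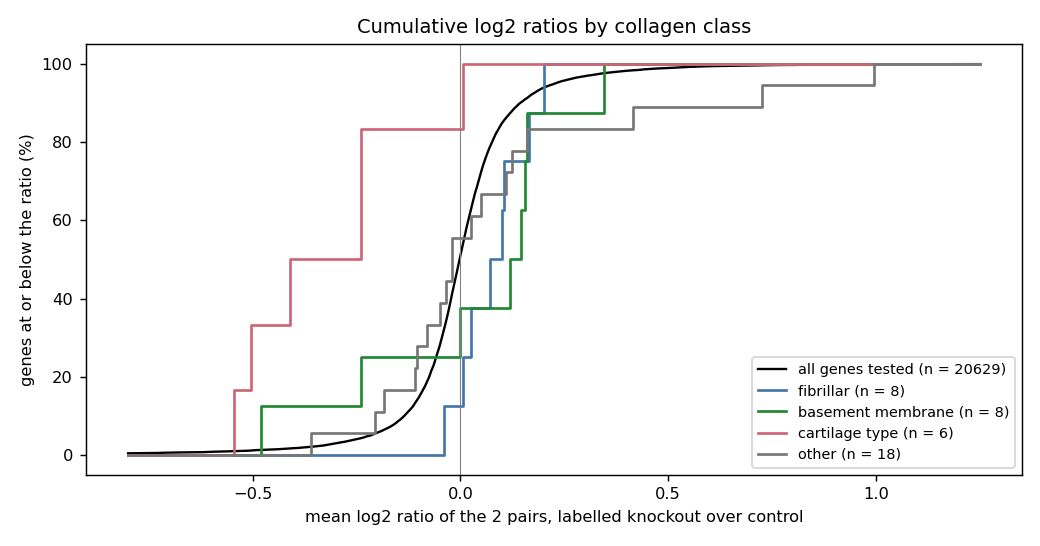
Cumulative share of genes (vertical axis, %) at or below each mean log2 ratio (horizontal axis) for the 4 collagen classes and for all 20629 genes. The cartilage type curve lies left of the others with a median of -0.32, and the fibrillar and basement membrane medians lie at 0.087 and 0.14.

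Type VI collagen forms beaded filaments around cells, with Col6a1 and Col6a2 encoding constant chains and Col6a3, Col6a4, Col6a5 and Col6a6 interchangeable ones. Col6a5 had levels of 8.77 and 8.35 in the controls against 9.06 and 9.51 in the knockouts, which do not overlap. The ratio was 0.30 in females and 1.16 in males, and the mean of 0.73 was not called (SD 0.61; 95% interval 0.28 to 1.17; adjusted p = 0.114). A second Col6a5 probe was not above background. The remaining members lay near 0, at -0.11 for Col6a1, -0.033 for Col6a2, -0.10 for Col6a3, -0.018 for Col6a4 and 0.11 for Col6a6, with adjusted p from 0.668 to 0.984. A second Col6a6 probe that passed gave -0.073.

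Among the transmembrane collagens, Col25a1, known for a role in muscle innervation, had levels of 10.29 and 9.94 in the controls against 10.50 and 10.57 in the knockouts. Its ratio was 0.42 (SD 0.30; adjusted p = 0.116). Its 4 probes gave 0.42, 0.46, 0.16 and 0.057, so the size depends on the probe. Col17a1, a collagen of hemidesmosomes in epithelia, gave -0.18 (adjusted p = 0.273), and Col23a1 gave -0.20 (adjusted p = 0.236).

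Of the fibril-associated collagens, Col22a1, which is found at tissue junctions such as those of muscle and tendon, gave -0.24 and -0.48 in the pairs, with a mean of -0.36 (adjusted p = 0.0817). Its levels were 9.30 and 9.39 in the controls and 9.06 and 8.91 in the knockouts. Col12a1, Col14a1, Col16a1 and Col20a1 lay between -0.076 and 0.054, and the 2 probes of Col14a1 and of Col20a1 differed in sign. Col7a1, the anchoring fibril collagen beneath epithelia, gave 0.13 (adjusted p = 0.509), and Col26a1 gave 0.16 (pair values 0.010 and 0.31; adjusted p = 0.536). None was called.

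**Figure D4:**
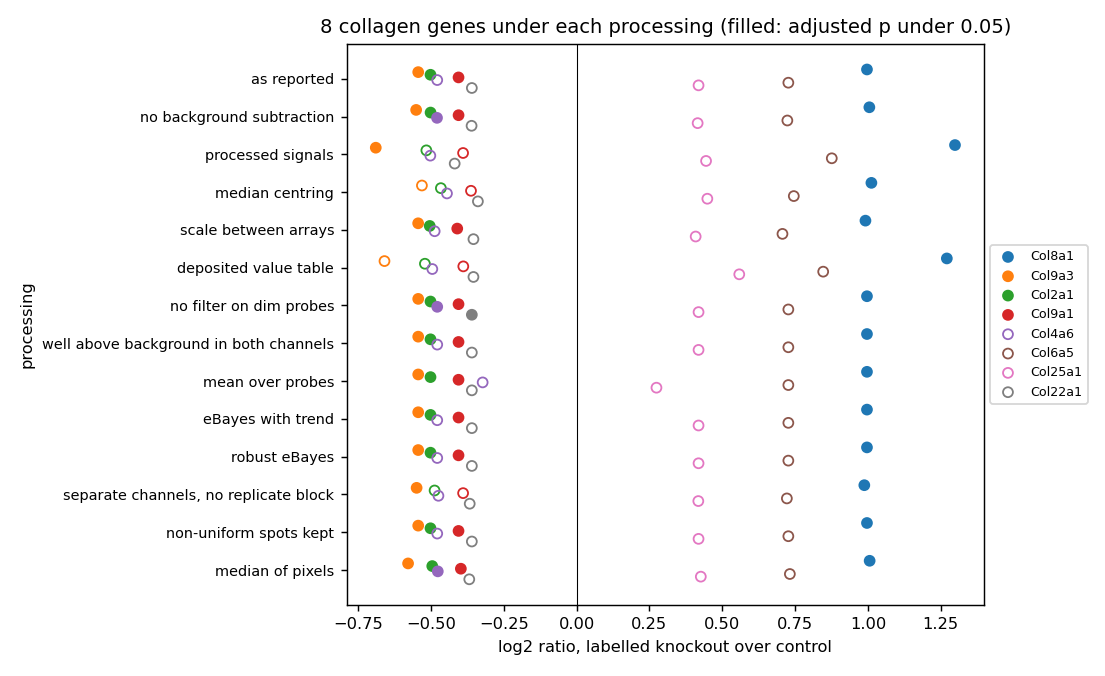
Log2 ratio (horizontal axis) of 8 collagen genes under the reported processing and each alternative that gave a p (vertical axis); filled points have an adjusted p under 0.05. Col8a1 is filled in every row, Col9a3, Col2a1 and Col9a1 open in some, and Col4a6 is filled in 3 alternatives and Col22a1 in 1.

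The pairs disagreed in sign for 14 of the 40 collagens (35%), beside 44.2% of all genes. In 13 the ratio was above 0 in both pairs and in 13 below 0 in both. The male ratio exceeded the female ratio in 33 of the 40 (82.5%), beside 54.7% of all genes. All 8 basement membrane genes and 17 of the 18 other genes lay that way, but 4 of 8 fibrillar and 4 of 6 cartilage type genes did. With all genes split by brightness into 4 groups of 5157 or 5158, dimmest first, the groups held 8, 10, 4 and 18 collagens. Of these, 7, 8, 3 and 15 had the higher male ratio, beside 53.7%, 51.6%, 54.1% and 59.4% of all genes in the same groups. The called collagens numbered 2, 1, 0 and 1, where 4.96%, 5.74%, 2.35% and 1.67% of all genes were called. The pairs differ in dye orientation as well as sex.

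**Figure D5:**
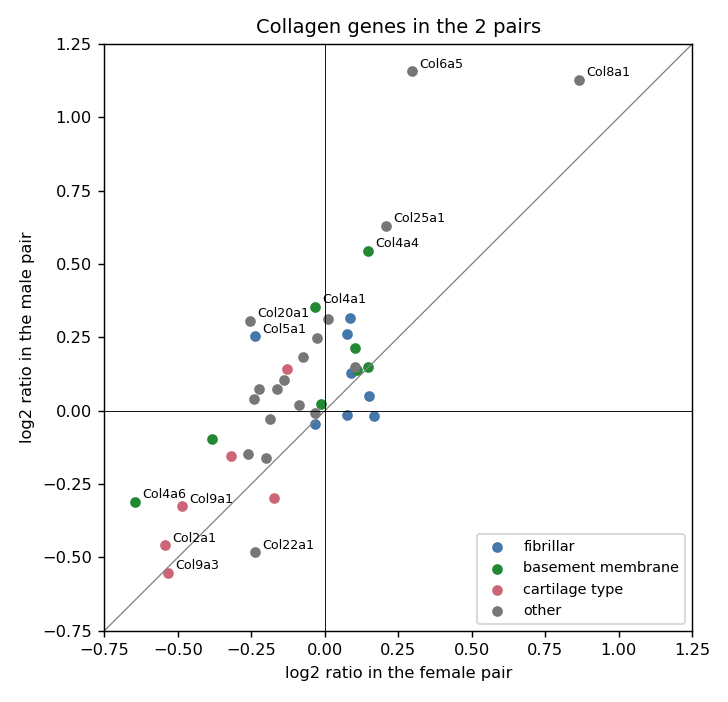
Log2 ratio of each collagen gene in the female pair (horizontal axis) against the male pair (vertical axis), coloured by class, with the line of equal values. Most points, 33 of 40, lie above the line, and Col6a5 lies at 0.30 and 1.16.

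Of 58 genes that modify, export, cut, crosslink, bind or break down collagen, 53 were tested: 2 rose, 1 fell and 50 were not called, with a median of 0.041. Those 3 of 53 stand beside 3.68% of all genes. P3h4, named after the prolyl 3-hydroxylase family, had levels of 14.27 and 14.37 in the controls against 14.90 and 14.79 in the knockouts, a ratio of 0.52 (SD 0.15; adjusted p = 0.0201). Lox, the lysyl oxidase that starts the crosslinking of collagen and elastin, had levels of 12.85 and 12.77 against 13.18 and 13.31, a ratio of 0.44 (SD 0.15; adjusted p = 0.0369). Mmp9, a gelatinase that cuts denatured collagen and type IV, had levels of 8.17 and 8.34 against 7.24 and 7.63, a ratio of -0.82 (SD 0.16; adjusted p = 0.00401). Knockout and control levels did not overlap for any of them, but they were picked by a call on these same values. The share of all genes whose levels separate is not given here, so this adds no support to the calls. The calls of P3h4 and Lox were lost with processed signals, median centring and the deposited value table, where their adjusted p lay between 0.0834 and 0.2, and that of Lox also with the mean over probes, at 0.0741.

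By role, hydroxylation and folding had 1 of 18 tested genes higher (median 0.048), crosslinking 1 of 6 higher (median 0.10) and breakdown 1 of 10 lower (median 0.050). The 5 export genes, the 6 propeptide cleavage genes tested and the 8 receptors tested had none called. The largest changes not called were in Itga11 and Itga1, collagen-binding integrin chains, at 0.35 (adjusted p = 0.116) and 0.34 (adjusted p = 0.0524), and in P4ha2, a prolyl 4-hydroxylase chain, at 0.32 (adjusted p = 0.0646). Tll1, Tll2, Itga2, Mmp8 and Mmp13 were not tested, being either dim or without a named probe.

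RefSeq promoter windows, from 250 bases before to 50 after the start, matched 35 of the 44 genes with 38 windows. GGGCGG on either strand was found in 60.5% of these windows (22 genes), beside 35.7% of all 32851 windows. TATAAA was in 13.2% beside 13.6%, CCAAT in 34.2% beside 37.4%, and AGGTGTGA in 0 beside 1.28%. The median GC content of the 250 bases before the start was 59.0% for the collagen genes against 52.4% for all. A match describes the letters and not a bound site.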

How the data were processed

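RNA from 4 samples was hybridised as 2 pairs on two-colour Agilent arrays with 4 spots per probe. Per the submitters' processing notes, the authors made the deposited intensities in Agilent Feature Extraction, version 10.7.3.1. Their deposited value table holds a score per probe, a signed fold by its values, whose direction, labelled knockout over control, was settled against those intensities (Pearson 0.982 and 0.985 over bright probes). With limma 3.58.1 in R 4.3.3, mean intensities were background corrected (normexp, offset 50) and normalized by loess with control spots at weight 0. Non-uniform spots were dropped (186 and 223), spots averaged, and ratios turned to knockout over control. Levels were made comparable by a quantile step between arrays. The array is the pairing unit, so each ratio is within a pair. The brightest probe that passed stood for a gene, and lmFit and eBayes had 1 residual degree of freedom and 5.24 prior ones. Intervals cover 95%. Of the probes, 28303 were named through RefSeq accessions and 11093 kept the file's name. The small number of arrays limits the precision.

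Named genes were those called, the 2 largest of each class not called, their partner chains and neighbours, and called machinery genes. Other members are given more briefly, and Col22a1, Itga1, Itga11 and P4ha2 were singled out after their values were seen. The members and lists were chosen with earlier results of these data known, and 2 alternatives (non-uniform spots kept, median of pixels) were added after seeing the data. The procedure was tested on simulated data. The simulation's dye bias and noise were revised over 4 versions after their results were seen. In each version unchanged genes made up more of the calls than the nominal rate, more so where dye bias was not fully removed, so a call near the threshold is less certain than its adjusted p says. The result of 1 marker gene is not reported here.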

Additional observations from a re-analysis of the deposited data

Results flagged for a closer look

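In 14 of the 40 collagen genes tested the female and male pairs had opposite signs, and these differences were not tested; sex and dye cannot be told apart. The male minus female log2 ratio was above 0 in 12 of them: 0.56 for Col20a1, 0.49 for Col5a1, 0.39 for Col4a1, 0.30 for Col16a1, 0.28 for Col6a3, 0.28 for Col6a6, 0.27 for Col11a2, 0.26 for Col12a1, 0.24 for Col6a4, 0.24 for Col8a2, 0.11 for Col6a2 and 0.037 for Col4a5. It was below 0 in Col1a1 (-0.19) and Col5a2 (-0.088). None of the 4 called collagens was among them.

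The median over all collagens also had opposite signs, -0.054 for females and 0.073 for males, a difference of 0.13. For the other collagens the medians were -0.11 and 0.089, a difference of 0.20. Among 65 marker genes tested, 14 had opposite signs. The male minus female difference was 1.44 for Six2, 1.06 for Egfl7, 0.82 for Wt1, 0.54 for Stmn2, 0.22 for Aldh1a2, 0.19 for Pax2 and 0.17 for Des, and -0.91 for Alpl, -0.70 for Sox9, -0.51 for Upk2, -0.28 for Krt5, -0.16 for Bglap2, -0.14 for Grhl3 and -0.056 for Upk1a. These differences were not tested.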

How the results depend on the processing

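Col8a1 was called in all 13 alternatives that gave a p and no called collagen changed sign in any of the 15. The count over all genes was 463 with processed signals, 242 with median centring, 285 from the deposited value table and 443 with separate channels and no replicate block. For collagens it was 2, 1, 1 and 2 in that order, of which 1, 0, 0 and 1 were lower, and 2 at an adjusted p under 0.01. Without the filter 5 collagens were lower. For collagen machinery genes 1 was called with processed signals, 1 with median centring and 1 from the deposited table, and 5 without the filter and 5 with the median of pixels. The fibrillar median was 0.14 with median centring, 0.099 from the deposited table and 0.030 with types II and XI counted as fibrillar, which put the cartilage type median at -0.41. Without the filter that median was -0.24. Leaving out 1 pair gave values with no test, since no residual degrees of freedom remain: the median ran from 0.080 to 0.090 for fibrillar, from 0.044 to 0.14 for basement membrane, from -0.40 to -0.31 for cartilage type, from -0.11 to 0.089 for other and from -0.054 to 0.073 for all collagens.

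Signs turned 24 times over 15 genes, none with a reported size above 0.16. Leaving out 1 pair gave -0.13 to 0.14 for Col11a2, -0.075 to 0.18 for Col12a1, -0.22 to 0.072 for Col16a1, -0.018 to 0.17 for Col1a1, -0.26 to 0.31 for Col20a1, -0.034 to 0.35 for Col4a1, -0.014 to 0.023 for Col4a5, -0.24 to 0.25 for Col5a1, -0.014 to 0.074 for Col5a2, -0.086 to 0.021 for Col6a2, -0.24 to 0.039 for Col6a3, -0.14 to 0.10 for Col6a4, -0.028 to 0.25 for Col6a6 and -0.16 to 0.073 for Col8a2. Col14a1 gave 0.013 with median centring, 0.012 from the deposited table, 0.0099 with the mean over probes and 0.00016 with separate channels. Col6a4 gave 0.012 with processed signals, 0.015 from the deposited table and 0.0081 with the median of pixels. Col20a1 gave -0.0069 with the mean over probes, Col6a2 gave 0.00026 with median centring and Col5a1 gave -0.0032 with scaling between arrays. The causes were not tested. Signal over background limits the 4 genes that did not pass the filter.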
